A study of Mus musculus with 8 samples.

Results

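Histone genes were compared between 4 wildtype and 4 Sox11-/- arrays of the caudal urogenital ridge, the tissue at the tail end of the embryo's trunk from which kidney and gonad arise. A gene was a member if its symbol begins as histone symbols do (H1f, H2ac, H2az, H2bc, H3c, H3f, H4c, H4f and their older Hist forms) and a probe set of the array lists that symbol alone. There were 34 such genes among 19356 measured, and where a gene had several such probe sets, the one brightest on average stood for it. They comprised 25 replication-dependent genes (4 of H1, 3 of H2A, 8 of H2B, 3 of H3 and 7 of H4) and 9 variants (4 of H1, 3 of H2A, 1 of H2B and 1 of H3). All embryos were at E10.75 and of a mixed genetic background, and no treatment was given. Sox11-/- embryos lack both working copies of Sox11, a SoxC transcription factor, and the labels do not say how the allele was made. The labels call the replicates independent, and whether each was 1 embryo or a pool they do not say either. In whole tissue, fewer cells of a type and less RNA per cell cannot be told apart.

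Histones are the proteins around which DNA is wound. H2A, H2B, H3 and H4 form the core of the nucleosome, and H1 binds the DNA that links nucleosomes. Most copies are made in S phase from replication-dependent genes, which lie in clusters, have no introns and give mRNAs that end in a stem-loop instead of a poly(A) tail. NPAT drives their transcription, SLBP holds the stem-loop, and the U7 particle and a cleavage complex cut the end. Variant genes mostly stand alone, mostly give polyadenylated mRNAs and supply histones outside replication. The testis genes H1f6, H2ac1 and H2bc1, counted here as variants, lie in the clusters. In an embryonic ridge, where most cells divide, the replication-dependent mRNAs are a major product of S phase. The labels name a whole-transcript amplification kit after removal of ribosomal RNA, and they do not say whether priming depended on a poly(A) tail.

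RefSeq's table of gene starts (GRCm38.p6) held a window for 30 of the 34 genes, and 21 of these windows lie on chromosome 13. The 250 bases before each start were searched on both strands for CCAAT, the site of the NF-Y complex, for TATAAA, the TATA box, and for ATTTGCAT, the octamer known from H2B promoters and bound by OCT1. None of these 3 motifs contains another. The octamer stood in 8 of the 30 histone windows (26.7%) against 1.6% of 32851 windows of the same length over all genes. All 8 belonged to H2A or H2B genes: H2ac1, H2ac4, H2ac8, H2bc1, H2bc3, H2bc8, H2bc14 and H2bc18. CCAAT stood in 23 of the 30 (76.7%, against 33.8% overall) and TATAAA in 14 (46.7%, against 12.4%). The replication-dependent H4 windows had CCAAT in 2 of 6. A match describes the letters of the window and does not show that a factor binds there. Below are 3 windows with the octamer and that of an H4 gene without it, chosen to show how the H2B windows with the octamer differ from that of the H4 gene with the largest difference. They cover chr13:23746484-23746733 on the plus strand for H2bc3, chr13:23571150-23571399 on the plus strand for H2bc8, chr13:23934157-23934406 on the minus strand for H2bc1 and chr13:23698459-23698708 on the minus strand for H4c3. Each is written 5′ to 3′ along its gene up to the base before the start, and capitals mark the 3 motifs on either strand.
H2bc3: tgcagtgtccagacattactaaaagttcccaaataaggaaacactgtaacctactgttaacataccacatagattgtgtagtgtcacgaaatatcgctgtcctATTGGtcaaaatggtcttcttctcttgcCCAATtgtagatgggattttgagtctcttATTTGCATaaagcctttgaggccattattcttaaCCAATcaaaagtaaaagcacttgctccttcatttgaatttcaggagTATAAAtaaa
H2bc8: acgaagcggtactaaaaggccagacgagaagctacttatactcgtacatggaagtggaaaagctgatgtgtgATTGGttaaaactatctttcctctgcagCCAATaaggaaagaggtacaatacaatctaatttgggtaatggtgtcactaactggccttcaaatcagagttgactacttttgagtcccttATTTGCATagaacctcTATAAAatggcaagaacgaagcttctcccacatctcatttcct
H2bc1: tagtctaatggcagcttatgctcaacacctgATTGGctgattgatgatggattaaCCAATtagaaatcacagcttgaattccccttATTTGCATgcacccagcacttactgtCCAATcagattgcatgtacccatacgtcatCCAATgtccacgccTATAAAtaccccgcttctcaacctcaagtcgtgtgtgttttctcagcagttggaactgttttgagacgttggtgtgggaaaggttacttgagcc
H4c3: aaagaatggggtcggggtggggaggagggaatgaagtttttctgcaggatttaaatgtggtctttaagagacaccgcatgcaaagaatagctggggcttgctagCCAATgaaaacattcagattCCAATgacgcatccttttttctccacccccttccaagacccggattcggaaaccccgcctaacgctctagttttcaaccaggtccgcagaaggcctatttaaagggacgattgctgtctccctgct
H2bc8 and H2ac8 lie head to head, and their windows share 179 bases. H2bc1 and H2ac1 are arranged in the same way and share 220. For H2bc4, H2bc21, H3c7 and H4c14 the table has no window.

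The signal is a log2 value made by the authors with RMA, a method that corrects background, equalizes the arrays' distributions and gives 1 value per probe set. Sox11 itself was at 11.72 to 11.86 in wild type and 8.93 to 9.24 in knockout ridges (means 11.79 and 9.10). Markers of the labelled tissue were present: 11 of 11 genes of the metanephric and intermediate mesoderm and 9 of 10 of the nephric duct lay above the median signal of all genes (7.55). In lists of other cells this count ran from 1 of 8 for germ cells to 8 of 8 for endothelium, so it is not particular to that tissue. A probe set's signal depends on its probes, so signals of different genes are not compared as amounts. Of the 34 histone genes 32 lay at or above the 25th percentile of signal and 28 at or above the median, and none was removed.

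No histone gene passed the test. Limma, a linear model with moderated variances, called 0 of 34 genes (0 lower and 0 higher) at a Benjamini-Hochberg adjusted p under 0.05 over the whole table, where 1.44% of genes passed, 1.08% lower and 0.362% higher. At an unadjusted p under 0.05, 0 members were lower and 2 higher (H2bc4 and H2bc1), against 9.38% and 7.29% of all genes. In none of the 34 did the 4 arrays of one genotype lie to 1 side of the other 4, which held for 10.5% of all genes. The lowest limma adjusted p among the members was 0.159. A p that misses the threshold does not show equality, so the 95% intervals of the difference matter here. For 26 of the 34 genes the interval lay within 0.5 on the log2 scale on either side of 0, and for all 34 within 1. Of all 19356 genes, 17351 had an interval within 0.5 and 19196 one within 1. By class, the interval lay within 0.5 for 17 of the 25 replication-dependent genes and for all 9 variants.

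**Figure D1:**
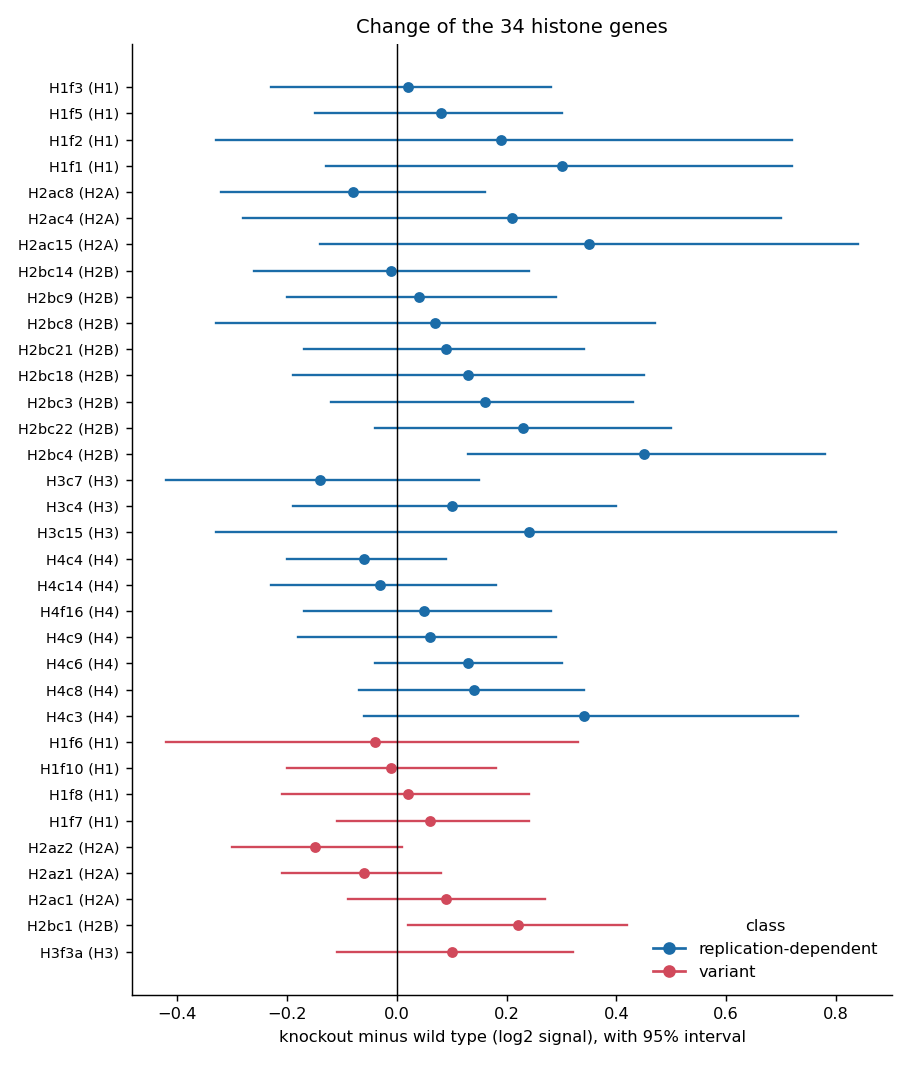
Difference between knockout and wild type on the log2 scale for each of the 34 histone genes (points) with its 95% interval from limma (lines), blue for replication-dependent genes and red for variants. The intervals of H2bc4 (0.13 to 0.78) and H2bc1 (0.02 to 0.42) lie above 0, and the other 32 include it.

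Of the 25 replication-dependent genes 20 lay above 0, with a median of 0.10 and values from -0.14 to 0.45, while all genes had a median of 0.00 and 9650 of 19356 above 0. The median was 0.14 for H1, 0.21 for H2A, 0.11 for H2B, 0.10 for H3 and 0.06 for H4. Probe sets that list several genes of a family, described below, had medians of 0.01 (H2A), 0.03 (H2B), -0.03 (H3) and -0.05 (H4). The 9 variants had 5 above 0, a median of 0.02 and values from -0.15 to 0.22. These medians carry no test. The medians of the 5 replication-dependent families stayed above 0 after median centring and after a further quantile normalization. The scalings moved the median of all genes by at most 0.03.

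By signal, the replication-dependent genes lay mostly in the upper quartiles of all genes. In the highest quartile 11 of 14 lay above 0 with a median of 0.13, where all genes of that quartile had -0.03. In the third quartile 8 of 9 lay above 0 with a median of 0.09, where all genes had -0.05. The 2 replication-dependent genes in the second quartile, H2bc22 and H3c7, were at 0.23 and -0.14. The 3 variants of the highest quartile (H1f10, H2az1 and H2az2) lay below 0, with a median of -0.06, and the 2 of the lowest (H1f6 and H1f8) were at -0.04 and 0.02.

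**Figure D2:**
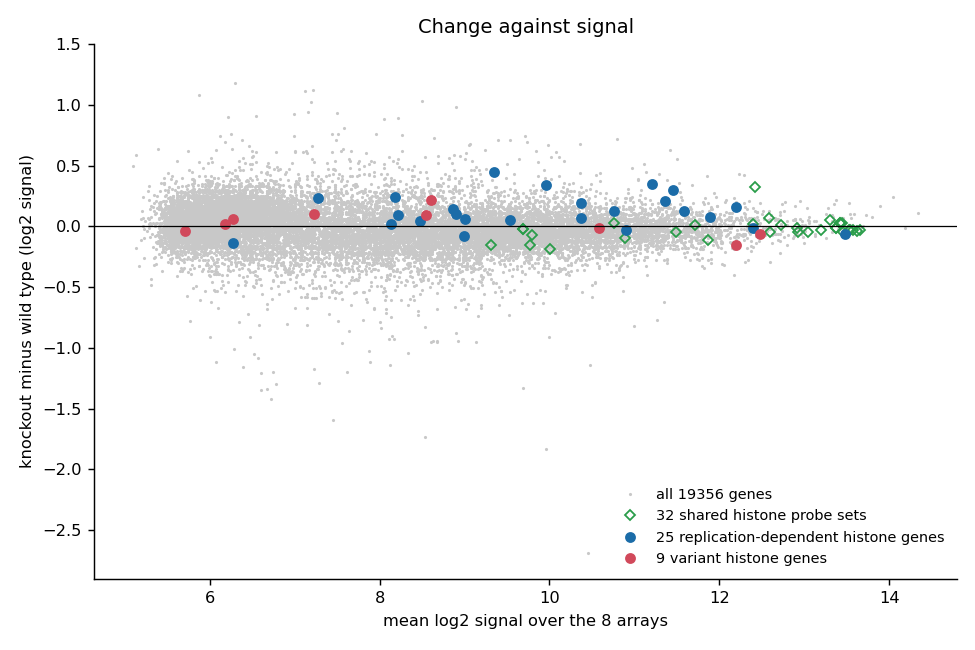
Difference between knockout and wild type (log2) against the mean log2 signal over the 8 arrays, for all 19356 genes (grey), the 25 replication-dependent genes (blue), the 9 variants (red) and 32 probe sets that list several symbols with a histone gene among them (green diamonds). The blue points lie mostly above 0 from -0.14 to 0.45, and the lowest grey point is Sox11 at -2.69.

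Linker histones H1 compact the fibre between nucleosomes, and H1f1 to H1f5 encode the subtypes of dividing cells. H1f1 had log2 signals of 11.18, 11.05, 11.43 and 11.57 in wild type replicates 1 to 4 and 12.15, 11.30, 11.23 and 11.73 in the knockout. Knockout replicates 1 and 4 lay above all wild type arrays and replicates 2 and 3 among them. The difference was 0.30 (SE 0.19, 95% interval -0.13 to 0.72, limma adjusted p = 0.463). H1f2 ranged from 9.66 to 10.88 in wild type and 10.22 to 10.92 in knockout, a difference of 0.19 (SE 0.24, limma adjusted p = 0.707). Wild type replicate 2 was its lowest array, and without it the difference was -0.01. H1f3 (0.02) and H1f5 (0.08) had intervals within 0.30 of 0. H1f10, the variant H1X, was at 10.58 ± 0.15 and 10.57 ± 0.09 (SD, n = 4 each), a difference of -0.01. H1f6, H1f7 and H1f8 are H1 genes of testis and oocyte, had mean signals of 5.71, 6.27 and 6.18, below the median of all genes, and differed by -0.04, 0.06 and 0.02.

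Among H2A genes, H2ac15 and H2ac4 were the most scattered. H2ac15 stood at 10.74, 10.52, 11.49 and 11.38 in wild type and at 11.54, 11.40, 10.94 and 11.65 in knockout ridges. Wild type replicates 3 and 4 lay within the knockout range and replicates 1 and 2 below it. Its difference was 0.35 (SE 0.22, 95% interval -0.14 to 0.84, limma adjusted p = 0.453). H2ac4 stood at 11.49, 11.52, 11.50 and 10.49 in wild type and at 11.66, 11.49, 11.09 and 11.59 in knockout. Its difference of 0.21 (SE 0.22, limma adjusted p = 0.667) rested on wild type replicate 4, and without that array it was -0.04. H2ac8 was at -0.08 (SE 0.11, limma adjusted p = 0.734), with both genotypes between 8.72 and 9.26.

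H2A.Z, made from H2az1 and H2az2, marks nucleosomes beside gene starts and is put in place outside replication. H2az2 stood at 12.37, 12.14, 12.27 and 12.27 in wild type and at 12.09, 12.15, 12.18 and 12.05 in knockout, so 2 knockout arrays lay below all wild type arrays and 2 among them. The difference was -0.15 (SE 0.07, 95% interval -0.30 to 0.01, limma adjusted p = 0.323). H2az1 was at -0.06 (SE 0.07, limma adjusted p = 0.658) on the probe set with the higher signal and at 0.08 (SE 0.10, limma adjusted p = 0.733) on its other probe set. As their signs differ, its direction is uncertain. H2ac1, the testis H2A of the large cluster, was at 0.09 (SE 0.08, limma adjusted p = 0.588). Variants whose symbols fall outside the rule were H2ax, the H2A of DNA damage signalling, at -0.01 (SE 0.07, limma adjusted p = 0.977), and Macroh2a1, which carries a large extra domain, at -0.15 (SE 0.07, limma adjusted p = 0.323).

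H2B held the largest difference of the 34 genes. H2bc4 stood at 9.06, 9.06, 9.30 and 9.10 in wild type and at 9.91, 9.58, 9.12 and 9.71 in knockout ridges. Knockout replicates 1, 2 and 4 lay above every wild type array, and replicate 3 lay among them. The means were 9.13 ± 0.11 and 9.58 ± 0.34 (SD, n = 4 each), a difference of 0.45 (SE 0.15, 95% interval 0.13 to 0.78) or 1.37-fold, with a limma adjusted p of 0.159. Without knockout replicate 3 it was 0.61 (SE 0.10) with a limma adjusted p of 0.0284, so this array decides whether the gene passes.

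H2bc1, the testis H2B, stood at 8.49, 8.53, 8.64 and 8.33 in wild type and at 8.91, 8.75, 8.59 and 8.64 in knockout, a difference of 0.22 (SE 0.09, 95% interval 0.02 to 0.42, limma adjusted p = 0.249). Its head-to-head neighbour H2ac1 lay at 0.09, as given above. H2bc22 was at 0.23 (SE 0.12, limma adjusted p = 0.372) and H2bc3 at 0.16 (SE 0.12, limma adjusted p = 0.548). The other 5 H2B genes, among them H2bc14 at -0.01 and H2bc21, whose product replaces other H2B in olfactory neurons, at 0.09, lay between -0.01 and 0.13. H2bc8 and H2ac8, which share a start region, were both highest in wild type replicate 1 (10.83 and 9.26) and lowest in wild type replicate 4 (9.88 and 8.72). Their differences between genotypes were 0.07 and -0.08. This order is not particular to that pair, as H2bc14 was also highest in wild type replicate 1 (12.58) and lowest in replicate 4 (12.06). Of the other head-to-head pair, H2bc1 was lowest in wild type replicate 4 (8.33) and H2ac1 was not (8.53).

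**Figure D3:**
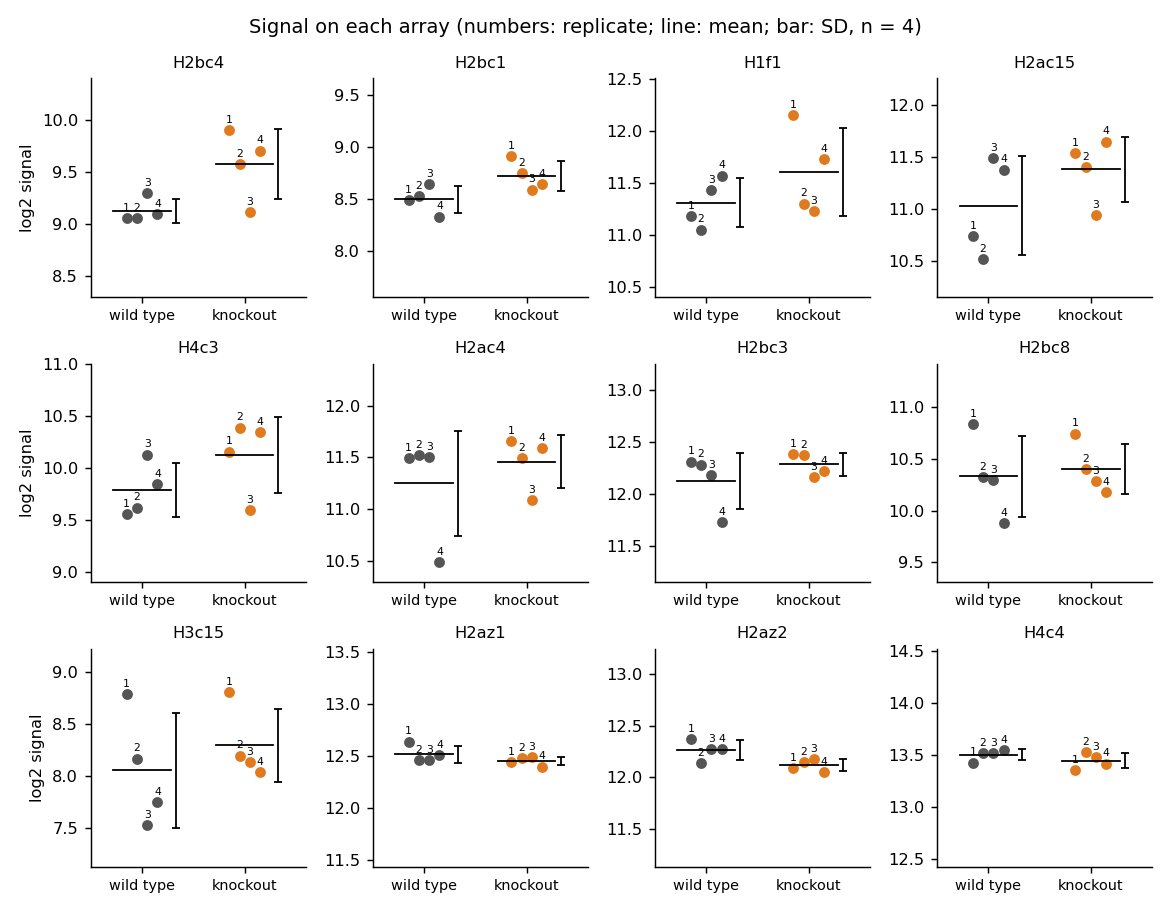
Log2 signal of 12 histone genes on each array, grey for wild type and orange for knockout, with replicate numbers, the mean (line) and the SD (bar, n = 4). Each panel spans the same range of log2 signal. Knockout replicate 3 is the lowest of its genotype in H2bc4, H2ac15, H4c3 and H2ac4, and wild type replicate 4 is low in H2ac4 and H2bc3.

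H3c15, an H3 gene outside the large cluster, ranged from 7.53 to 8.79 in wild type and 8.04 to 8.81 in knockout, a difference of 0.24 (SE 0.25, 95% interval -0.33 to 0.80, limma adjusted p = 0.670), with replicate 1 the highest in both genotypes. H3c4 was at 0.10 and H3c7 at -0.14. H3f3a, 1 of the genes that encode the replacement histone of transcribed chromatin, was at 0.10 (SE 0.10, limma adjusted p = 0.626) on a probe set of 7.23 mean signal. The 4 probe sets that list it with Gm12657 had mean signals of 11.49 to 12.60 and differed by -0.11 to 0.01 (3 below 0). The direction of H3f3a is thus uncertain. Among H4 genes, H4c3 stood at 9.56, 9.62, 10.13 and 9.85 in wild type and at 10.16, 10.39, 9.60 and 10.35 in knockout. Knockout replicates 1, 2 and 4 lay above the wild type arrays and replicate 3 near the lowest of them, with a difference of 0.34 (SE 0.18, 95% interval -0.06 to 0.73, limma adjusted p = 0.371). H4c6 was at 0.13 (SE 0.08, limma adjusted p = 0.424) and the other 5 H4 genes between -0.06 and 0.14. H4c4 had the highest mean signal of the 34 (13.48) and was at -0.06 (SE 0.06, limma adjusted p = 0.693).

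Replication-dependent genes scattered more within a genotype than other genes did. The median of their SDs within genotypes was 0.20 (log2), from 0.06 for H4c4 to 0.46 for H3c15, against 0.12 for the variants and 0.12 for all genes. Among all genes of the same signal quartile, 22 of the 25 lay above the 75th percentile of SD and 11 above the 90th. After subtraction of each gene's mean over the 8 arrays, the median over the 25 genes was 0.11, -0.15, 0.01 and -0.06 in wild type replicates 1 to 4 and 0.18, 0.06, -0.05 and 0.01 in the knockout. The genotypes thus overlapped, with knockout replicate 1 the highest array and wild type replicate 2 the lowest. Wild type replicate 4 was the lowest wild type array for 6 of the 11 replication-dependent H2A and H2B genes and for 2 of the 14 of H1, H3 and H4. Y-linked genes had a mean signal of 9.84 to 10.06 in wild type replicate 1 and knockout replicates 3 and 4 and of 5.31 to 5.58 in the other 5 arrays, so the genotypes differed in make-up by sex (1 of 4 arrays against 2 of 4). With that signal as a covariate limma called 0 of the 34 histone genes. For the variants these medians ran from -0.10 to 0.04 in wild type and from -0.03 to 0.05 in knockout.

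**Figure D4:**
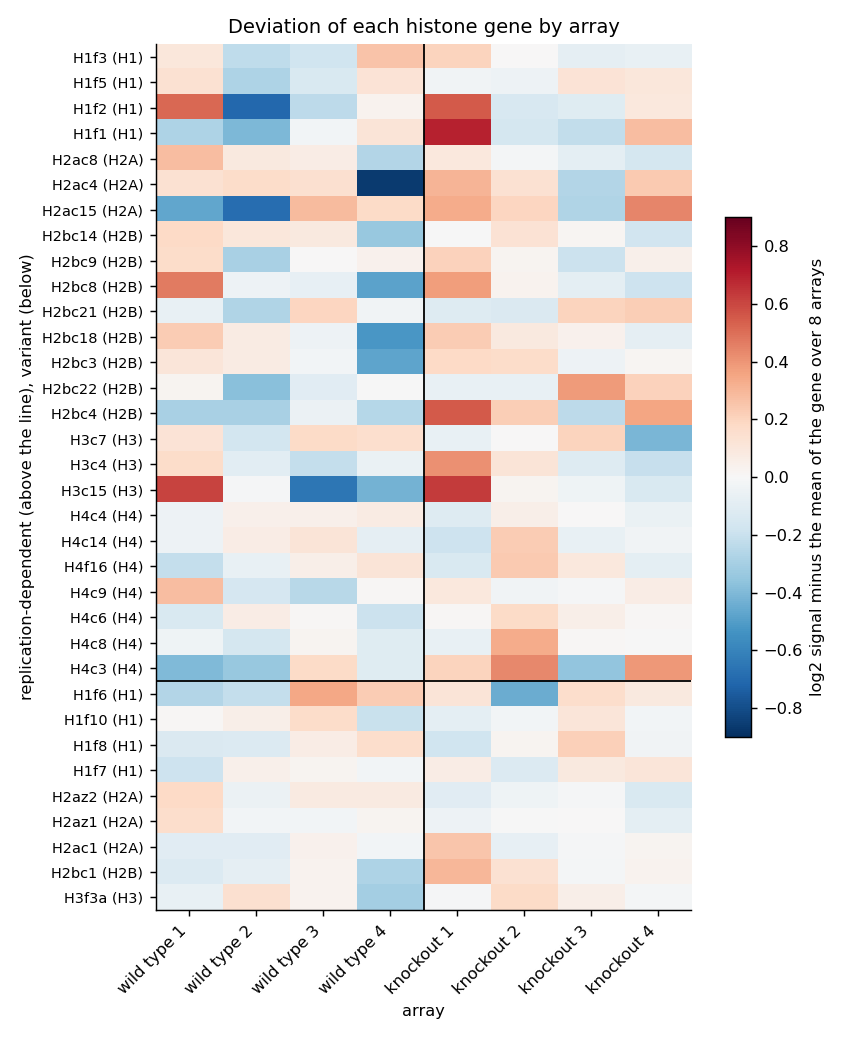
Deviation of each histone gene's log2 signal from its own mean over the 8 arrays (colour, red above and blue below), arrays in columns and genes in rows, with replication-dependent genes above the horizontal line. Wild type replicate 2 holds the lowest value of the 4 wild type arrays for 11 of the 25 replication-dependent genes, and knockout replicate 1 the highest of the 4 knockout arrays for 13.

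Most histone genes cannot be read singly on this array. Of 72 histone symbols on any probe set 38 stood only on probe sets that list several symbols, and 19 of the 34 members were listed there as well, so probes made for one copy may also read others. Such shared probe sets numbered 32, and 2 pairs of them had the same values on every array. Limma, run on every probe set, called 0 of the 32 (0.724% of all 27478 probe sets were called) and gave 1 an unadjusted p under 0.05 (15.8% of all probe sets), a probe set of 11 H4 genes at -0.19. Of the 32, 22 lay below 0 and 10 above, with a median of -0.03. Among all genes above the median signal 63% lay below 0, with a median of -0.04. The 10 probe sets that list 12 H3 genes each differed by -0.15 to 0.03 (9 below 0), and the 2 that list H2A genes by -0.05 and 0.07. All 5 that list 11 H4 genes each lay below 0, from -0.19 to -0.01, with 4 distinct sets of values among them. Probe sets of 1 family may read the same transcripts, so these counts are not of independent readings. The probe set of H4c17 with H4c11 was at -0.15, and that of H2bc6 with H1f4 at -0.07. The 7 that list H2B genes differed by -0.02 to 0.32 (5 above 0). The 4 that list H3f3a with Gm12657 were at -0.11 to 0.01 and the 2 that list H3f3b with Gm6485 at 0.01 and 0.02. For 31 of the 32 the 95% interval lay within 0.5 of 0. Mean signals exceeded 13 in 14 of them, as in 209 probe sets of the whole table. Their median SD within a genotype was 0.09.

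Among genes that make, carry and place histones, 2 chaperones fell. In the 4 lists of such genes, limma called 2 of 66 measured genes lower and 0 higher over all genes. Of all genes 1.08% were called lower and 0.362% higher. At an unadjusted p under 0.05, 17 of the 66 were lower and 0 higher. That is 25.8% of them, against 9.38% of all genes and 13.5% of genes above the median signal, where 63 of the 66 lie. Of the 66, 53 lay below 0 (80.3%, against 63.0% of genes above the median signal).

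Both called genes are chaperones. Nasp, which holds a reserve of H3 and H4 in the nucleus, lay between 10.69 and 10.90 on the wild type arrays and at 10.41, 10.31, 10.24 and 10.25 in knockout ridges. The genotypes did not overlap. Nasp fell by 0.47 (log2, SE 0.07), to 0.722 of the wild type level, with a limma adjusted p of 0.0126. Chaf1b, a subunit of the complex that deposits H3 and H4 at replication forks, was within 10.57 to 10.60 in wild type and 10.14 to 10.31 in knockout and fell by 0.36 (SE 0.06, limma adjusted p = 0.0254). Its partner subunit Chaf1a was at -0.19 (SE 0.07, limma adjusted p = 0.215). Asf1b, which passes H3 and H4 to that complex, was at 0.04 (limma adjusted p = 0.807), and Hira, the chaperone of replacement H3, at -0.09 (limma adjusted p = 0.599). Nasp ran from -0.51 to -0.43 over the alternatives and missed the threshold without knockout replicate 4 (limma adjusted p = 0.0511) and without moderation of the variance (0.0635). Chaf1b ran from -0.38 to -0.32 and missed it without knockout replicates 1 or 4 (0.0881 and 0.0876) or wild type replicates 1, 2 or 3 (0.0543, 0.0688 and 0.0593), with the replicate number as a block (0.0785), after median centring (0.0544) and with Y-linked signal as a covariate (0.0522).

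Of 18 measured genes for the processing and decay of histone mRNA none passed limma's threshold. At an unadjusted p under 0.05, 6 were lower (33.3%) and 0 higher. Of genes above the median signal, where 16 of the 18 lie, 13.5% were lower at that p and 63% lay below 0. All 18 lay below 0, also after median centring and a further quantile normalization. The median of the 18 was -0.12. Cpsf3, the nuclease that cuts histone pre-mRNA, was at -0.24 (SE 0.07, limma adjusted p = 0.130), Lsm11 of the U7 particle at -0.20 (SE 0.07, limma adjusted p = 0.196) and Eri1, which trims the stem-loop, at -0.15 (SE 0.06, limma adjusted p = 0.231). Slbp was at -0.12 (SE 0.10, limma adjusted p = 0.562) and Casp8ap2, which recruits the cleavage factors, at -0.14 (SE 0.08, limma adjusted p = 0.410). Cpsf3, Lsm11 and Eri1 were chosen after their values were seen, as was Hinfp below.

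Of 13 genes for transcription of replication-dependent histones none passed, 5 had an unadjusted p under 0.05 (all downward), and the median was -0.11. Hinfp, the factor of H4 promoters, was at -0.26 (SE 0.08, limma adjusted p = 0.130) and Npat at 0.04 (SE 0.09, limma adjusted p = 0.870). Of 13 genes of variant exchange none passed, 1 had an unadjusted p under 0.05 (downward), and the median was -0.07. Among 26 S phase and DNA replication genes 1 fell (Rrm2, a subunit of ribonucleotide reductase, by 0.77, SE 0.08, limma adjusted p = 0.0022) 6 had an unadjusted p under 0.05 (all downward), and the median was -0.09. Mitosis genes had 0 of 17 called, 1 with an unadjusted p under 0.05 (downward), and a median of -0.04. The measured genes of the transcription, exchange, S phase and mitosis lists all lie above the median signal. Of all genes above it, 13.5% were lower at limma's unadjusted p under 0.05. Limma called 1.08% of all genes lower.

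**Figure D5:**
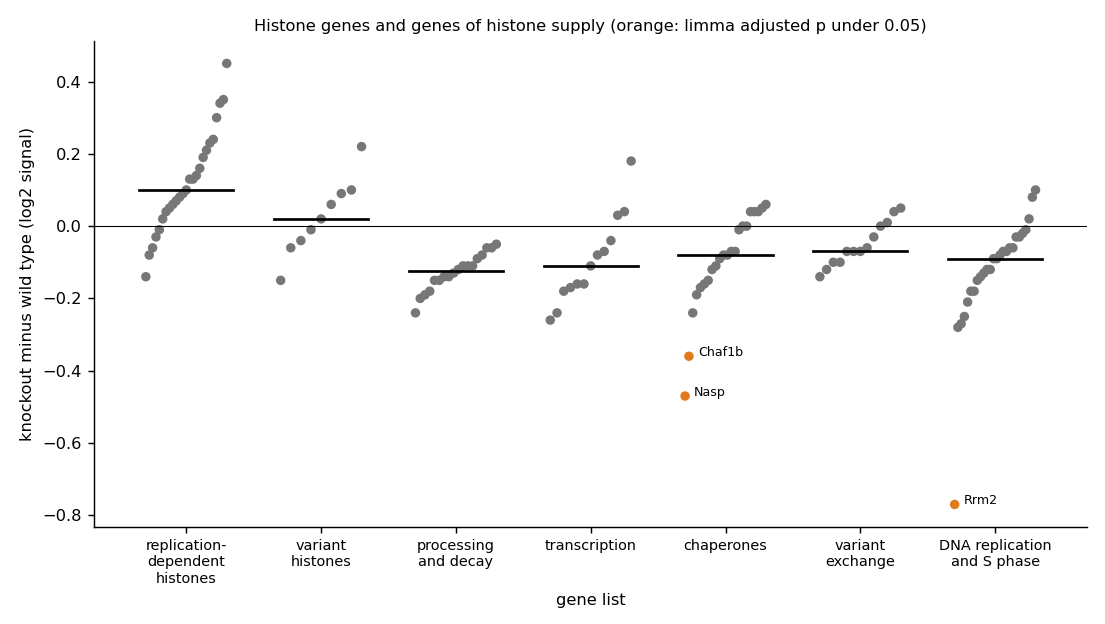
Difference between knockout and wild type (log2) of each histone gene and of each gene of the lists of histone supply and DNA replication (points), with the median of the list (black line) and genes past limma's adjusted p of 0.05 in orange. The replication-dependent histones have a median of 0.10 and the processing and decay genes one of -0.12, and Nasp, Chaf1b and Rrm2 are the genes past the threshold.

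Marker genes of the ridge and of other cells were read on the same arrays, and few passed the test. Over all genes, limma called 1.08% lower and 0.362% higher. At an unadjusted p under 0.05 it had 9.38% of all genes lower and 7.29% higher. Erythroid genes had 11 of 12 below 0 with a median of -0.25 and 0 called by limma (5 lower at an unadjusted p under 0.05), and their mean signal was 8.62 to 9.20 in wild type and 8.57 to 8.85 in knockout arrays. Neuronal genes had 9 of 10 below 0 with a median of -0.25 and 1 called lower (3 lower at an unadjusted p under 0.05). Their mean signal was 8.07 to 8.47 in wild type and 7.87 to 8.19 in knockout arrays. Of the labelled tissue, nephric duct genes had 8 of 10 above 0 with a median of 0.20 and 1 called higher. At an unadjusted p under 0.05, 5 of the 10 were higher and 0 lower. Their mean signal was 9.02 to 9.23 in wild type and 9.21 to 9.40 in knockout arrays. Metanephric and intermediate mesoderm genes had 8 of 11 below 0 with a median of -0.21, 1 called lower (5 lower at an unadjusted p under 0.05), and a mean signal of 10.04 to 10.11 and 9.75 to 9.93. Muscle genes had a median of 0.20 with 0 of 12 called (4 higher at an unadjusted p under 0.05), and a mean signal of 7.33 to 7.66 and 7.46 to 7.84. Of 5 neural crest genes 1 was called higher (median 0.11), and of 6 gonad primordium genes 1 lower (median -0.13). Endothelium, germ cells and gut and coelomic epithelium had 0 of 8 called each, with medians of 0.09, -0.06 and 0.07. Their part in the values of the histone and histone supply genes was not tested.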

How the data were processed

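RNA of 4 wildtype and 4 Sox11-/- ridges was measured on 8 Affymetrix arrays. The deposited values are log2 signals of 27478 probe sets, made by the authors with RMA (per the submitters' processing notes, which also list Partek). No source used here gives versions, settings or a genome build. The log2 scale was read from the deposited values, whose array medians lay between 7.29 and 7.31. RMA equalizes the arrays, so a shift of all transcripts could not be seen. The number of arrays limits the precision.

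Symbols came from the platform's annotation (21103 probe sets with 1 symbol, 1531 with several, 4844 with none). Promoter windows came from RefSeq's GRCm38.p6 table. Genotypes were compared over all 19356 genes by lmFit and eBayes of limma 3.58.1, run in R 4.3.3 (two-sided, Benjamini-Hochberg threshold 0.05), after tests on simulated data. The labels call the replicates independent without naming embryos or litters. The p-values set the difference between genotypes against the spread between these samples. Whether that spread is one between embryos, pools or litters is not known.

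The members and lists were chosen with earlier results of these data known. The rule for names took, per class, the 2 lowest p of each family and the 2 highest and lowest mean signals, 7 variants fixed by symbol, members past the threshold, called supply genes and 8 supply genes fixed by symbol. H1f0 and H3f3b have no probe set of their own among the members. The 4 lists of supply genes named 73 genes, of which 7 were not used here. The testis genes H1f6, H2ac1 and H2bc1 were counted as variants. H2bc21, whose product replaces other H2B in olfactory neurons, was counted as replication-dependent throughout. Alternatives were another normalization, filters on signal, other treatments of probe sets, of the variance, of array weights and of the testis genes, a replicate block, Y-linked signal as a covariate, shared probe sets, other thresholds and leaving out each array.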

Additional observations from a re-analysis of the deposited data

Results flagged for a closer look

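Of 86 groups of 4 arrays looked at (2 genotypes for each of 34 histone genes and 9 other genes), 4 had an array standing apart from its group, and chance flags about 1 in 20. H2ac4 in wild type replicate 4 was at 10.49, and the nearest wild type array at 11.49, a gap that took a share of 0.963 of the whole range. H1f6 in knockout replicate 2 was at 5.27 with the nearest at 5.80 (0.886 of the range), and H1f7 in the same array at 6.15 with the nearest at 6.34 (0.864). H3c7 in wild type replicate 2 was at 6.11 with the nearest at 6.40 (0.856). Of these 4 only H2ac4 lies above the median signal of all genes.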

How the results depend on the processing

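The count of histone genes lower in knockout was 0 under every alternative run, and that of higher genes was 0 except without knockout replicate 3 (0 to 1 when 1 array was left out) and 2 at an unadjusted p under 0.05. The median of the replication-dependent genes was 0.10, ran from 0.09 to 0.15 under the other alternatives and from 0.07 to 0.16 when 1 array was left out. That of the variants was 0.02, was 0.06 with genes at or above the 25th percentile of signal, and ran from -0.05 to 0.07 when 1 array was left out. The 2 histone supply genes past the threshold were 1 with median centring, without moderation, with the replicate block and with the Y-linked signal as covariate (Nasp was lost without moderation and Chaf1b in the other 3), and 0 to 2 when 1 array was left out, 0 without knockout replicate 4. Same-numbered arrays deviated together with correlations of -0.17, 0.09, -0.04 and 0.06, so the numbers were not taken as pairs, and with the replicate block 0 histone genes were called. Of 20 histone genes named by the rule 6 changed sign in at least 1 alternative, as did 2 supply genes. H1f6 (-0.04 with all arrays) was at 0.01 with array weights and ran from -0.14 to 0.10 when 1 array was left out. H1f8 (0.02) was at -0.04 after a further quantile normalization and ran from -0.06 to 0.08. H2bc14 (-0.01) was at 0.02 after median centring and ran from -0.13 to 0.05. H2az1 (-0.06) was at 0.01 as the mean of its probe sets. When 1 array was left out, H1f2 ran from -0.01 to 0.40, H2ac4 from -0.04 to 0.33, Npat from -0.05 to 0.08 and Asf1b from -0.01 to 0.06. The causes were not tested. The 32 shared probe sets, added after the data were seen, gave 0 calls.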

Other observations

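A description of wild type replicate 4, chosen after the values were seen and given without a test, concerns the octamer. Of the 8 histone genes with the octamer in the 250 bases before their start, 7 had their lowest wild type value in that array (H2ac4, H2ac8, H2bc1, H2bc3, H2bc8, H2bc14 and H2bc18, but not H2ac1). The same held for 3 of the 22 histone genes whose window lacks it. Over all measured genes the array was the lowest of the 4 for 31.2% of the 266 genes with it and for 29.7% of the 14925 whose window lacks it. In that array the 8 histone genes had a median deviation of -0.41 from their own means over the 8 arrays, and the 22 one of 0.03. Among replication-dependent H2A and H2B genes it was 6 of 6 with the octamer and 0 of 3 without it (H2ac15, H2bc9 and H2bc22).

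These genes are not independent of each other. H2bc8 and H2ac8 share 1 octamer, as do H2bc1 and H2ac1, so the 8 genes hold 6 distinct octamers and the 6 replication-dependent genes 5. H2A and H2B genes also have similar coding sequences, and several are listed together on shared probe sets. The pattern rests on 1 array, and shared probe sets were not counted in it. Neither of the 2 that list H2A genes had its lowest wild type value there, and 1 was highest there (13.09 against 12.85 to 12.95). Of the 7 that list H2B genes, the 4 with mean signals above 13 had their lowest wild type value there, and the others did not. Some shared probe sets without H2A or H2B genes were also low there. A probe set of 11 H4 genes was at 10.51, against 11.02 to 11.13 in the other wild type arrays. All 4 that list H3f3a with Gm12657 had their lowest wild type value there. Another probe set of 11 H4 genes went the other way, at 13.45 against 13.32 to 13.40.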
